A study of Mus musculus with 12 samples.

Results

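The report covers 9 transcription factor genes of the C/EBP family and the MYC network in primary cardiomyocytes of adult mice: Cebpa, Cebpb, Cebpd, Cebpg, Myc, Max, Mxi1, Mxd1 and Mxd4. They were picked by gene symbol from the 22915 genes of the deposited table, and all 9 were among the 13184 genes tested. Heart muscle cells of 12-week-old male C57/Bl6 mice were kept for 24 h in normoxia with PBS as control, with mLIF (murine leukemia inhibitory factor), with mOSM (murine oncostatin M) or with hlOSM (murine oncostatin M carrying the human AB loop), and each condition is represented by 3 of the 12 libraries. In mouse cells mLIF binds LIFR, mOSM binds OSMR and hlOSM signals through both receptors, so that the 4 conditions separate either receptor from the pair. The labels give each cytokine at 25 ng/mL, and the methods of the study name a slightly lower dose. The cells are wild-type, and no source says whether the 3 libraries of a condition came from separate mice, so that p-values measure the spread between these libraries. Values are normalized counts rounded to whole numbers, whose totals per library ran from 2745748 to 2911891. These totals are not read numbers, and the depth behind a value is unknown.

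C/EBP proteins are basic leucine zipper factors that bind DNA as dimers with each other. C/EBPβ and C/EBPδ are known as mediators of the acute phase response to cytokines of the IL-6 family, C/EBPα for differentiation and metabolism of liver, fat and myeloid cells, and C/EBPγ as a partner without a strong activation domain of its own. MYC binds E-box DNA as a dimer with MAX and activates genes of growth, among them those of ribosome production. MXD1, MXI1 and MXD4 compete with MYC for MAX and recruit the SIN3 corepressor, and are therefore known as MYC antagonists.

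The clearest change was that of Cebpd, which rose with all 3 cytokines, more with mOSM and hlOSM than with mLIF. Myc also rose with all 3 cytokines. Mxd1 rose and Mxd4 and Cebpg fell with mOSM and with hlOSM. Cebpb rose with mOSM. Cebpa, Max and Mxi1 did not pass the threshold in any comparison. The test was limma's moderated test on the log2(normalized count + 1) scale, with all 12 libraries in a single fit, and a gene was called when its two-sided Benjamini-Hochberg adjusted p over all 13184 genes was under 0.05. In this bulk RNA, fewer cells of a type and less RNA per cell cannot be told apart. With mLIF, 2 of the 9 genes were raised and 0 lowered, against 9.91% of all tested genes called in this comparison. With mOSM, 4 were raised and 2 lowered, where 31.2% of all genes were called. With hlOSM, 3 were raised and 2 lowered, where 37.9% of all genes were called. The median log2 fold change of the 9 genes was 0.03, 0.13 and 0.14 for mLIF, mOSM and hlOSM, and the median of all tested genes lay within 0.01 of 0 each time. The 3 libraries of PBS and those of the cytokine did not overlap in 6 of the 9 genes for mLIF, 6 for mOSM and 7 for hlOSM. Among all tested genes, 30.3%, 40.1% and 47.0% did not overlap in these comparisons, which share the PBS libraries.

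**Figure D1:**
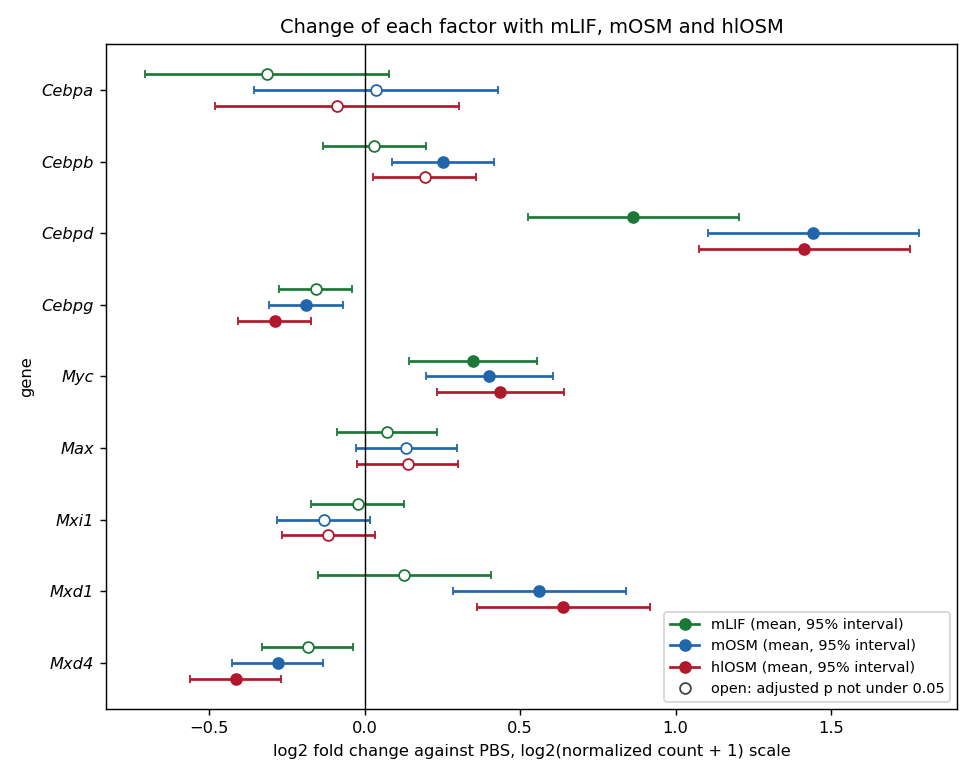
Log2 fold change against PBS (x axis, log2(normalized count + 1) scale) of each gene (y axis) with mLIF, mOSM and hlOSM. Points are limma estimates, bars their 95% intervals, and open points did not pass the threshold. Cebpd lies farthest to the right, at 0.86, 1.44 and 1.41, and Mxd4 farthest to the left among the called points, at −0.41 with hlOSM.

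The deposited values hold almost no difference between the replicate numbers. In the 6630 genes with a mean of at least 100 normalized counts, the replicate number accounted for 0.0168% of the variance within conditions after each library was centred, where independent libraries would give 25%. Values from which the means of the replicate numbers had been taken out before deposit would look like this, but no source says that it was done and it was not tested. If it was, the fit above counts more degrees of freedom than the values hold, and its p-values are too small. A blocked fit, which takes up the replicate number and its degrees of freedom, was therefore run beside it. Over all genes, it called 784 in place of 1307 for mLIF against PBS. It called the same number of the 9 genes against PBS with each cytokine, and 2 calls between cytokines were lost, as given below.

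Levels of different genes were compared per kb of exon, with the exons of all annotated transcripts of a gene joined. The joined length was 2.72 kb for Myc, 6.82 kb for Mxi1 and 8.48 kb for Mxd4, and which transcripts the cells held was not tested. The order of genes below depends on these lengths. In PBS, Cebpb was the highest of the 4 C/EBP transcripts at 246 ± 18.2 normalized counts per kb (SD, n = 3), followed by Cebpg at 92.3 ± 3.16, Cebpd at 20.0 ± 5.82 and Cebpa at 8.35. In the MYC network, Myc stood at 94.2 ± 5.50 normalized counts per kb under PBS, Max at 35.95 ± 0.699, Mxi1 at 29.4 ± 1.69, Mxd4 at 28.0 ± 0.916 and Mxd1 at 11.1 ± 1.10 (SD, n = 3). Mxi1 and Mxd4 differed by less than the sum of their SDs. The order of the C/EBP genes was the same with hlOSM, where Cebpd reached 52.6 ± 8.65 and Cebpg 75.5 ± 3.58 normalized counts per kb. Without division by length, Cebpa had between 15 and 24 normalized counts in the 12 libraries, and 17.3% of the tested genes had a lower mean. The other 8 genes had means above those of between 50.1% (Mxd1) and 88.0% (Cebpg) of the tested genes.

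Cebpd (ENSMUSG00000071637, mm10 chromosome 16, 15887286 to 15891031, plus strand), a single-exon gene known as a STAT3 target, had 90, 85 and 50 normalized counts in the PBS libraries. It had 112, 138 and 152 under mLIF, 188, 182 and 231 under mOSM, and 191, 168 and 232 under hlOSM. No cytokine library reached down into the range of PBS, and no mOSM or hlOSM library into that of mLIF, while mOSM and hlOSM overlapped. The log2 fold change against PBS was 0.86 with mLIF (standard error 0.16, limma adjusted p = 0.00192), 1.44 with mOSM (adjusted p = 4.76e-07) and 1.41 with hlOSM (adjusted p = 4.79e-07), or 1.82, 2.72 and 2.67 times the control level on the fitted scale. Cebpd passed the threshold against PBS in each of the 12 fits that left out a single library, for all 3 cytokines. Of its exonic bases, 15% overlap Spidr on the other strand, and the sources do not say whether reads were counted by strand. Spidr itself had log2 fold changes of 0.04, 0.23 and −0.02 with mLIF, mOSM and hlOSM and did not pass the threshold.

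Cebpb (ENSMUSG00000056501, chromosome 2, 167688915 to 167690418, plus strand), the other C/EBP factor of the acute phase response, changed far less. Its normalized counts were 391, 380 and 339 under PBS, 400, 367 and 366 under mLIF, 390, 450 and 485 under mOSM, and 411, 393 and 467 under hlOSM. The mOSM libraries overlapped those of PBS in 1 library, and the hlOSM libraries lay just above them. The log2 fold change was 0.25 with mOSM (standard error 0.08, limma adjusted p = 0.019), 0.19 with hlOSM (adjusted p = 0.0595) and 0.03 with mLIF (adjusted p = 0.847). The call with mOSM was lost without PBS replicate 3 (adjusted p = 0.11), mOSM replicate 2 (0.0592) or mOSM replicate 3 (0.101), while hlOSM was called after trimmed-mean rescaling (adjusted p = 0.0496) or quantile normalization (0.0311). Cebpb with hlOSM also passed without PBS replicate 1, hlOSM replicate 2, mOSM replicate 1 or mOSM replicate 3, with adjusted p between 0.0346 and 0.0446. Of the exonic bases of Cebpb, 20.7% overlap Tmem189 on the other strand, which had log2 fold changes of 0.18, 0.06 and 0.29 with mLIF, mOSM and hlOSM and was not called.

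Cebpg (ENSMUSG00000056216, chromosome 7, 35046422 to 35056573, minus strand) moved downwards. It had 538, 503 and 515 normalized counts under PBS, 460, 468 and 466 under mLIF, 451, 438 and 476 under mOSM, and 402, 430 and 441 under hlOSM. All 9 cytokine libraries lay below the lowest PBS library. The log2 fold change was −0.19 with mOSM (standard error 0.06, limma adjusted p = 0.014) and −0.29 with hlOSM (adjusted p = 0.000347), and −0.16 with mLIF, which was not called (adjusted p = 0.0805) unless only those conditions were fitted (0.0398). The mOSM call was lost without PBS replicate 1 (adjusted p = 0.0729) or mOSM replicate 2 (0.0673). Cebpa (ENSMUSG00000034957, chromosome 7, 35119293 to 35121928, plus strand) had 22 normalized counts in each PBS library, 15, 17 and 21 under mLIF, 24, 24 and 20 under mOSM, and 22, 19 and 21 under hlOSM. Its 95% intervals reached from −0.71 to 0.08 with mLIF, −0.36 to 0.43 with mOSM and −0.48 to 0.30 with hlOSM on the log2 scale, and changes within these bounds are compatible with the values.

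**Figure D2:**
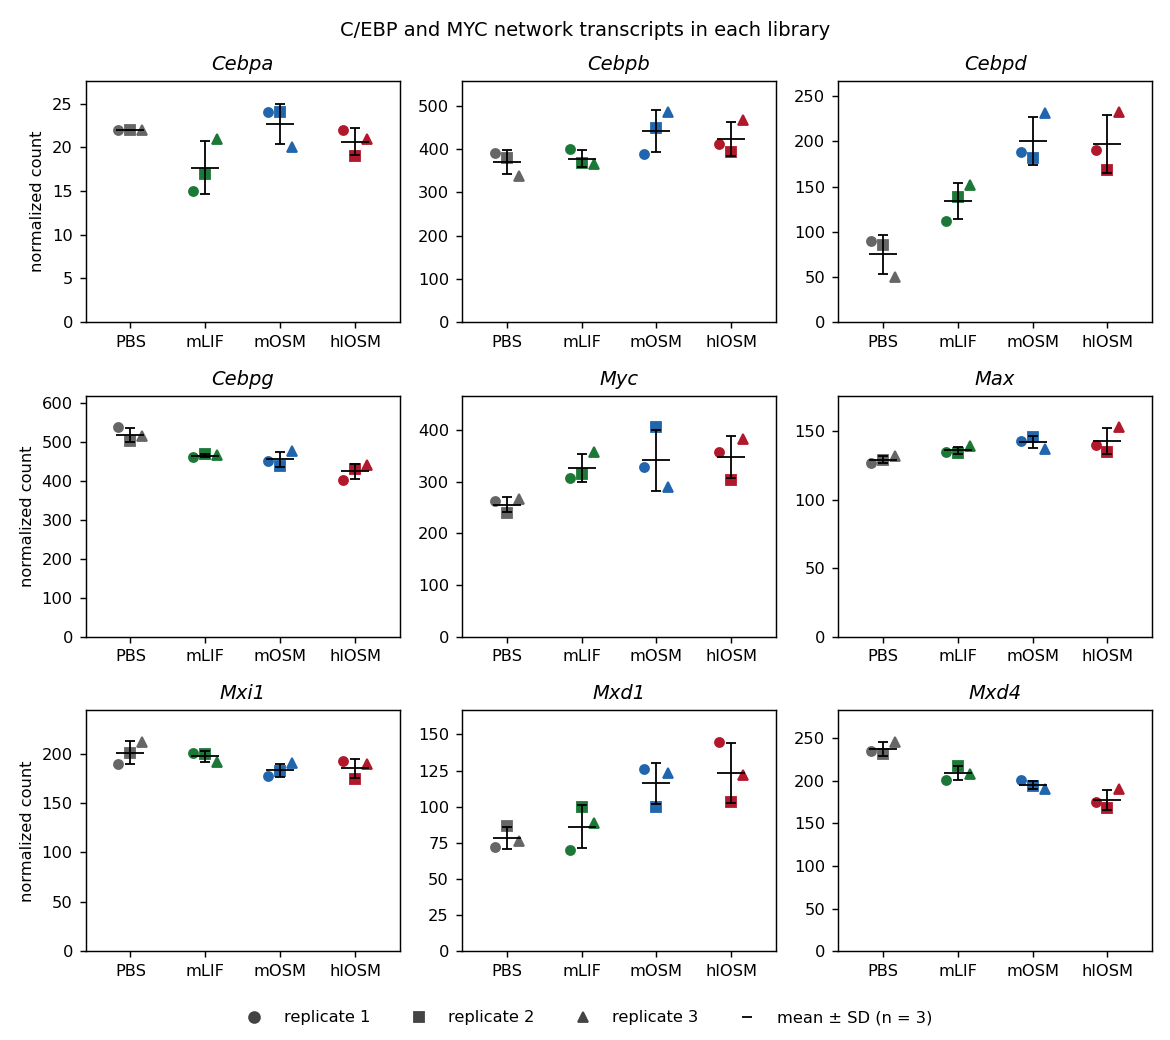
Normalized count (y axis, from 0) of each gene in the 12 libraries, by condition (x axis). Symbols mark the replicate numbers, and the bar gives the mean with its SD (n = 3). In Cebpd the conditions step up from 75 under PBS over 134 under mLIF to 200.3 under mOSM and 197 under hlOSM, while Mxd4 steps down from 237 under PBS to 178 under hlOSM.

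Myc (ENSMUSG00000022346, chromosome 15, 61985391 to 61990374, plus strand) had 262, 239 and 267 normalized counts under PBS, 307, 316 and 357 under mLIF, 328, 406 and 290 under mOSM, and 357, 304 and 383 under hlOSM. Every cytokine library lay above the highest PBS library, and the 3 cytokines overlapped each other. The log2 fold change was 0.35 with mLIF (standard error 0.10, limma adjusted p = 0.0272), 0.40 with mOSM (adjusted p = 0.00336) and 0.44 with hlOSM (adjusted p = 0.00134), or 1.27, 1.32 and 1.35 times the control level. The calls with mOSM and hlOSM held in all 12 fits that left out a library. The mLIF call was lost without PBS replicate 2 (adjusted p = 0.103), mLIF replicate 2 (0.0529) or mLIF replicate 3 (0.153). Max (ENSMUSG00000059436, chromosome 12, 76937269 to 76962201, minus strand), the common partner of MYC and its antagonists, was nearly level. It ranged from 127 to 132 normalized counts under PBS, 134 to 139 under mLIF, 137 to 146 under mOSM and 135 to 153 under hlOSM. These ranges did not overlap that of PBS, but the log2 fold changes of 0.07, 0.13 and 0.14 had 95% intervals that included 0 and did not pass the threshold (limma adjusted p of 0.6, 0.208 and 0.17).

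The antagonists of MYC did not move together. Mxd1 (ENSMUSG00000001156, chromosome 6, 86647042 to 86669161, minus strand) had 72, 87 and 76 normalized counts under PBS, 70, 100 and 89 under mLIF, 126, 100 and 123 under mOSM, and 145, 103 and 122 under hlOSM. All mOSM and hlOSM libraries lay above those of PBS, whereas mLIF spanned them. The log2 fold change was 0.56 with mOSM (standard error 0.13, limma adjusted p = 0.0026), 0.64 with hlOSM (adjusted p = 0.000667) and 0.13 with mLIF (adjusted p = 0.586). Mxd4 (ENSMUSG00000037235, chromosome 5, 34173883 to 34187720, minus strand) went the other way, with 235, 231 and 246 normalized counts under PBS, 201, 218 and 208 under mLIF, 201, 194 and 191 under mOSM, and 175, 168 and 191 under hlOSM. Every cytokine library lay below the lowest PBS library. The log2 fold change was −0.28 with mOSM (standard error 0.07, limma adjusted p = 0.00406), −0.41 with hlOSM (adjusted p = 7.11e-05) and −0.18 with mLIF, which was not called (adjusted p = 0.102). The mOSM and hlOSM calls of Mxd1 and Mxd4 held in all 12 fits without a library. Mxi1 (ENSMUSG00000025025, chromosome 19, 53310518 to 53375810, plus strand) had 189 to 212 normalized counts under PBS, 191 to 201 under mLIF, 177 to 190 under mOSM and 174 to 192 under hlOSM. Each range overlapped that of PBS, and its log2 fold changes of −0.02, −0.13 and −0.12 were not called (limma adjusted p of 0.878, 0.177 and 0.216).

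Promoter windows of the RefSeq annotation on GRCm38.p6 were matched to 7 of the 9 genes, all but Cebpd and Myc, and 3 are shown because their genes were called in opposite directions (Mxd1 and Mxd4) or because they belong to the acute phase pair (Cebpb). Each holds the 250 bases before the RefSeq start, written 5′ to 3′ on the strand of the gene, with motif matches in capitals.
Cebpb, chr2:167688665-167688914, plus strand: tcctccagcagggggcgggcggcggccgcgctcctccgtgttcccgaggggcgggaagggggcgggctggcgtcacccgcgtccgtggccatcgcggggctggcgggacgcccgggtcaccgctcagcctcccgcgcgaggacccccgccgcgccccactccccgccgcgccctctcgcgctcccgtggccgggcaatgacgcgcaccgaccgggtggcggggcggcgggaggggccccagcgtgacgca
Mxd1, chr6:86669160-86669409, minus strand: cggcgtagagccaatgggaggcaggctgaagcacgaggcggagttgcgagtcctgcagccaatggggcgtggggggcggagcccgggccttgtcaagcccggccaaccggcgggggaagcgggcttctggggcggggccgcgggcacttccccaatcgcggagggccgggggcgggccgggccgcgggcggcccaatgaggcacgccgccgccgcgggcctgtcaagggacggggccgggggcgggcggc
Mxd4, chr5:34187711-34187960, minus strand: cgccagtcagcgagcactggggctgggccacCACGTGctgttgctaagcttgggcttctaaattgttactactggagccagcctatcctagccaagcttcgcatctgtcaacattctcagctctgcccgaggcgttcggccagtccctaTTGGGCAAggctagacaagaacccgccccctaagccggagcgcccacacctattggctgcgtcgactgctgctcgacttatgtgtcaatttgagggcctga
The windows of Cebpb and Mxd1 are rich in G and C (81.6% and 78.4%, with 41 and 32 CpG), and that of Mxd4 less so (58.0%, with 13 CpG). The capitals in Mxd4 mark a CACGTG E-box at bases 32 to 37 of the printed run and, at bases 150 to 157, a match to the C/EBP motif TTGCNNAA read from the other strand. Motifs were searched on both strands of the full windows, which add 50 bases after the start. Over all 32851 windows of the RefSeq table, 7.15% hold the E-box, 10.8% the C/EBP motif and 8.3% the STAT motif TTCNNNGAA. Of the 9 windows of the 7 genes, 2 held the E-box (Mxd4, and Max across its start), 1 the C/EBP motif (Mxd4) and 0 the STAT motif.

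Because Myc and Mxd4 moved apart, their ratio within each library was also computed, per kb of exon and as a description without a test. The height of this ratio rests on the joined exon lengths. Without division by length, Myc and Mxd4 averaged 256 and 237 normalized counts under PBS. Myc stood at 3.48, 3.23 and 3.39 times Mxd4 under PBS, 4.77, 4.53 and 5.36 under mLIF, 5.10, 6.53 and 4.74 under mOSM, and 6.37, 5.65 and 6.26 under hlOSM. Every cytokine library lay above PBS. This follows from the values of Myc and Mxd4 given above, which did not overlap PBS in opposite directions, and adds nothing to them. Against the sum of Mxd1, Mxd4 and Mxi1, the ratio of Myc averaged 1.38 ± 0.0981 under PBS, 1.83 ± 0.172 under mLIF, 1.90 ± 0.398 under mOSM and 1.95 ± 0.120 under hlOSM (SD, n = 3), again without overlap with PBS. Against Mxd1 alone, the ratio of Myc overlapped PBS with all 3 cytokines, at 8.59 ± 1.26 under PBS and 7.42 ± 0.910 under hlOSM (SD, n = 3). Within the antagonists, Mxd1 rose from 0.397 ± 0.0478 of Mxd4 under PBS to 0.832 ± 0.141 under hlOSM (SD, n = 3). In the C/EBP family, Cebpd went from 0.0805 ± 0.0185 of Cebpb under PBS to 0.143 ± 0.0280 under mLIF, 0.182 ± 0.0174 under mOSM and 0.186 ± 0.0139 under hlOSM (SD, n = 3).

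**Figure D3:**
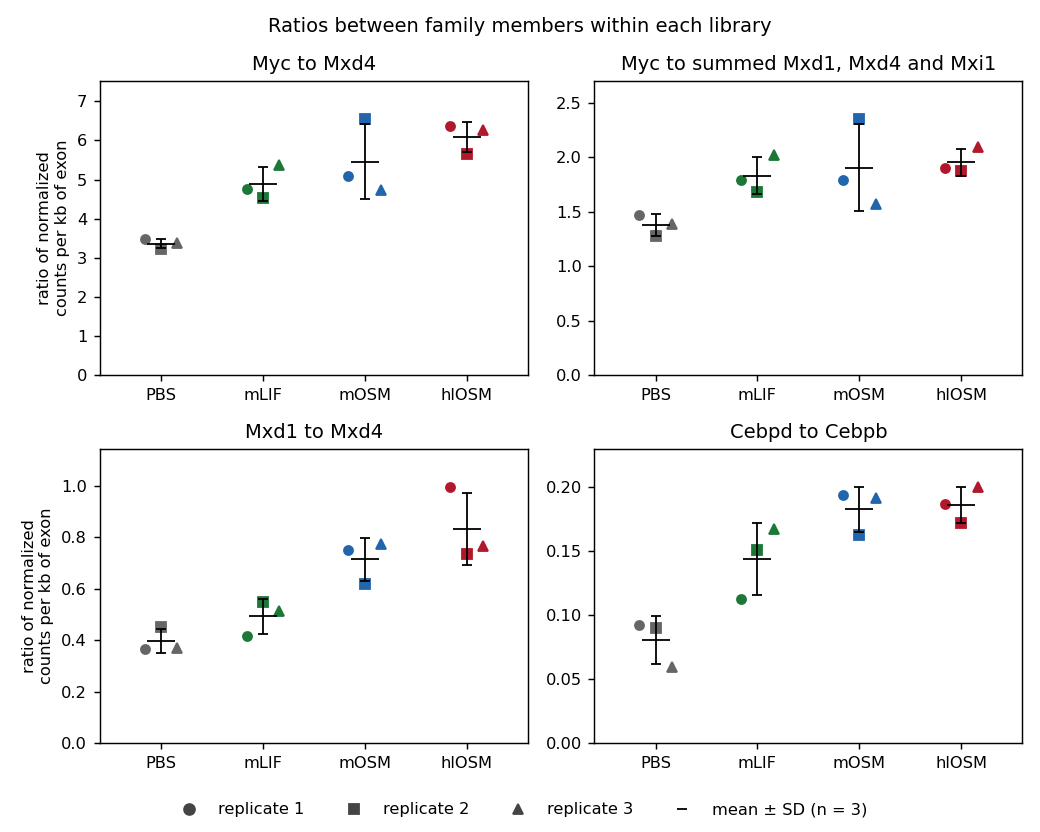
Ratio of normalized counts per kb of exon (y axis, from 0) for 4 pairs of genes or sums in the 12 libraries, by condition (x axis). Symbols mark replicate numbers, bars the mean with its SD (n = 3). Myc relative to Mxd4 averages 3.37 under PBS and 6.09 under hlOSM. In that panel no library of the cytokines lies inside the range of PBS, which follows from the separate values of Myc and Mxd4. For Mxd1 relative to Mxd4, mLIF replicate 1 (0.418) lies inside the range of PBS (0.368 to 0.452).

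The comparisons between cytokines ask what OSMR adds to or replaces in the response to LIFR. Against mLIF, 2 of the 9 genes were higher with mOSM, Cebpd (log2 difference 0.58, standard error 0.16, limma adjusted p = 0.0209) and Mxd1 (0.43, adjusted p = 0.0366), where 11.8% of all genes were called, 6.05% higher and 5.76% lower. The libraries of 2 of the 9 genes did not overlap, against 27.1% of all genes. These were Cebpd and Mxi1, which was not called, whereas the mOSM and mLIF libraries of Mxd1 overlapped. In the blocked fit, Mxd1 was no longer called (adjusted p = 0.0649). It also lost its call without filter (0.0537) and without mLIF replicate 1 (0.236), mLIF replicate 3 (0.0645), mOSM replicate 1 (0.137) or mOSM replicate 3 (0.127). With hlOSM against mLIF, 3 of the 9 were called, where 16.6% of all genes were, 7.42% higher and 9.22% lower. Cebpd was higher (log2 difference 0.55, limma adjusted p = 0.0222), Mxd1 was higher (0.51, adjusted p = 0.0102) and Mxd4 was lower (−0.23, adjusted p = 0.0259). The libraries of 4 of the 9 did not overlap, against 31.7% of all genes. The call of Mxd4 was lost with the block (adjusted p = 0.0704) and without mLIF replicate 2 (0.126), mLIF replicate 3 (0.062), hlOSM replicate 1 (0.0811) or hlOSM replicate 2 (0.121). The call of Cebpd was lost in a robust fit against either mOSM (0.106) or hlOSM (0.102), without mLIF replicate 1 against either (0.131 and 0.132), and without mOSM replicate 3 (0.122) or hlOSM replicate 3 (0.125). That of Mxd1 against hlOSM was lost without mLIF replicate 1 (0.0881) or hlOSM replicate 1 (0.0802). Cebpb, at 0.22 for mOSM against mLIF (adjusted p = 0.0779), passed without mOSM replicate 1 (0.0164) or when only those conditions were fitted (0.0463). Myc did not differ detectably between mLIF and the other cytokines. The difference was 0.05 for mOSM (95% interval −0.15 to 0.26) and 0.09 for hlOSM (−0.12 to 0.29) on the log2 scale.

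Between hlOSM and mOSM, limma called 0 of the 9 genes, 0 of them had an unadjusted p under 0.05, and the block called 0 as well, where 0.106% of all genes were called. The libraries overlapped in all 9 genes, whereas 9.74% of all genes did not overlap. The 95% interval of the difference reached from −0.37 to 0.31 for Cebpd, −0.17 to 0.24 for Myc, −0.20 to 0.36 for Mxd1, −0.22 to 0.02 for Cebpg and −0.28 to 0.01 for Mxd4 on the log2 scale. The interaction, which sets hlOSM minus mOSM against mLIF minus PBS, was also called by limma in 0 of the 9 genes, where 0.167% of all genes were called, 0.0152% with a positive and 0.152% with a negative value, and 2 of the 9 had an unadjusted p under 0.05. Those were Cebpd (−0.89, standard error 0.23, adjusted p = 0.115) and Myc (−0.31, standard error 0.14, adjusted p = 0.39), in which the step from mOSM to hlOSM was −0.03 and 0.04 and that from PBS to mLIF 0.86 and 0.35. Cebpd passed without PBS replicate 1 (adjusted p = 0.0287) or hlOSM replicate 3 (0.0435).

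Other factors of the C/EBP system were taken from a list of 14 partners and regulators, of which 12 were tested. With mLIF, 1 rose and 2 fell, with mOSM 3 rose and 4 fell, and with hlOSM 2 rose and 4 fell, where 5.47%, 15.4% and 18.2% of all genes rose and 4.44%, 15.8% and 19.8% fell. The block left 1 of the 2 lowered with mLIF (Crebzf, adjusted p = 0.0536), 3 of the 4 lowered with mOSM (Trib3, 0.0543) and 1 of the 2 raised with hlOSM (Gsk3b, 0.0633), with the lost gene in brackets. The largest changes were those of the Tribbles genes. Trib1, whose protein directs C/EBPα to degradation, rose from 138 ± 15.4 normalized counts under PBS to 368 with hlOSM (log2 fold changes 0.65, 1.37 and 1.41 with mLIF, mOSM and hlOSM). Trib2, a relative of Trib1, fell by 1.03 with mOSM and 1.17 with hlOSM on the log2 scale, and Ddit3, which encodes the stress-related C/EBP partner CHOP, by 0.40, 0.59 and 0.73 with the 3 cytokines. Crebzf fell with mOSM and hlOSM also in the blocked fit. Atf4 and Cebpz were not called with any cytokine.

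Of 34 acute phase and C/EBP target genes, 16 reached the level needed for the test. Of these, 6 rose and 1 fell with mLIF, 9 rose and 4 fell with mOSM, and 9 rose and 5 fell with hlOSM. Of this list, 37.5%, 56.2% and 56.2% thus rose with mLIF, mOSM and hlOSM, where 5.47%, 15.4% and 18.2% of all genes rose, and 6.25%, 25.0% and 31.2% fell, where 4.44%, 15.8% and 19.8% of all genes fell. The counts were the same with the block. Lcn2, counted among the raised genes with each cytokine, averaged 3 normalized counts under PBS. It averaged 10.3, 19 and 14.3 with mLIF, mOSM and hlOSM and reached the filter only through cytokine libraries. The filter thus favoured its rise, and the list was chosen with earlier results of these data known. The median log2 fold change was 0.18, 0.85 and 0.72, against medians within 0.01 of 0 over all genes. Serpina3n, a serine protease inhibitor of the acute phase, had log2 fold changes of 2.34, 3.39 and 3.49 for mLIF, mOSM and hlOSM, and rose each time. Il6 rose by 3.03 with mOSM and 2.82 with hlOSM, from 11.3 normalized counts under PBS to 86.7 with hlOSM, and changed by 0.17 with mLIF (limma adjusted p = 0.695). Mt1, a metallothionein gene, rose by 1.14, 1.66 and 1.78. The members of this list that fell with hlOSM included genes of fat and glucose metabolism, Fabp4 (−1.17), Slc2a4 (−0.78), Pparg (−0.66) and Lpin1 (−0.47), and the complement gene C3 (−0.33). These 5 and Lcn2 were named after their values were seen.

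Among 10 tested genes of the wider MYC, MAX and MLX network, the lowest adjusted p with mLIF was that of Usf2 (0.0589), 1 rose and 3 fell with mOSM, and 1 rose and 4 fell with hlOSM. Of all genes, 15.4% rose and 15.8% fell with mOSM, and 18.2% rose and 19.8% fell with hlOSM. With the block, the lowered genes were 2 with mOSM and 2 with hlOSM. Mlx, the MAX-like partner, rose by 0.42 with mOSM and 0.60 with hlOSM, and Mlxipl, which encodes the glucose-responsive factor ChREBP, fell by 0.58 and 0.89. Mxd3 and Mycn were low, at 13.7 and 17.3 normalized counts under PBS and 6.67 and 9 with hlOSM. Both were called lower with mOSM and hlOSM, but with the block the calls of Mycn with mOSM (adjusted p = 0.079) and hlOSM (0.0754) and of Mxd3 with hlOSM (0.0847) were lost, and the hlOSM libraries of Mycn overlapped those of PBS. Mxd3 averaged 7, 5.33 and 6.67 with mLIF, mOSM and hlOSM and reached the filter only through its PBS libraries. The filter thus favoured the lower calls of Mxd3, which is among the fallen genes counted above. Mga fell by 0.17 with hlOSM. Of 16 cofactors and regulators of MYC, 0 rose and 2 fell with mLIF, 1 rose and 2 fell with mOSM, and 0 rose and 3 fell with hlOSM. The lowered shares were 12.5%, 12.5% and 18.8%, where 4.44%, 15.8% and 19.8% of all genes fell, so that hlOSM was close to all genes. The raised shares were 0%, 6.25% and 0%, where 5.47%, 15.4% and 18.2% of all genes rose. The genes lowered with hlOSM were Cip2a, which encodes an inhibitor of the phosphatase that destabilizes MYC (−0.68), Fbxw7, which encodes a ubiquitin ligase subunit that removes MYC (−0.43), and the kinase gene Pim1 (−0.33).

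Among 52 genes known to be activated by MYC, 6 rose and 0 fell with mLIF, 21 rose and 1 fell with mOSM, and 20 rose and 1 fell with hlOSM. Their median log2 fold change was 0.02, 0.16 and 0.13. Of the list, 11.5%, 40.4% and 38.5% rose with mLIF, mOSM and hlOSM, where 5.47%, 15.4% and 18.2% of all genes rose. The lowered shares were 0%, 1.92% and 1.92%, where 4.44%, 15.8% and 19.8% of all genes fell. With the block, 4, 17 and 19 rose. Odc1, the entry enzyme of polyamine synthesis, rose by 0.43, 0.93 and 1.06 with mLIF, mOSM and hlOSM, from 203 normalized counts under PBS to 424 with hlOSM. Srm, the next enzyme of that path, rose by 0.64 with mOSM and 0.77 with hlOSM, and Cdk4, a cell cycle kinase gene, by 0.60, 0.60 and 0.70. Among nucleolar genes of the list with hlOSM, Rrp12 (0.27), Dkc1 (0.33) and Nop56 (0.25) rose, whereas Ncl (−0.06) and Npm1 (−0.03) were not called. Of 11 genes known to be repressed by MYC, 3 rose and 2 fell with each cytokine. This is 27.3% raised and 18.2% lowered each time, where 5.47%, 15.4% and 18.2% of all genes rose with mLIF, mOSM and hlOSM. Of all genes, 4.44%, 15.8% and 19.8% fell, and the lowered shares with mOSM and hlOSM were close to these. With the block, mLIF kept 1 raised and 1 lowered gene, and Gadd45a (adjusted p = 0.0896), Gadd45b (0.0896) and Cdkn1c (0.0796) were lost. Ndrg1 rose by 0.85, 1.57 and 1.71 and Gadd45a by 0.54 with mOSM and 0.68 with hlOSM, whereas Ndrg4 fell by 0.28, 0.39 and 0.54 on the log2 scale. The 5 nucleolar genes above were named after their values were seen.

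**Figure D4:**
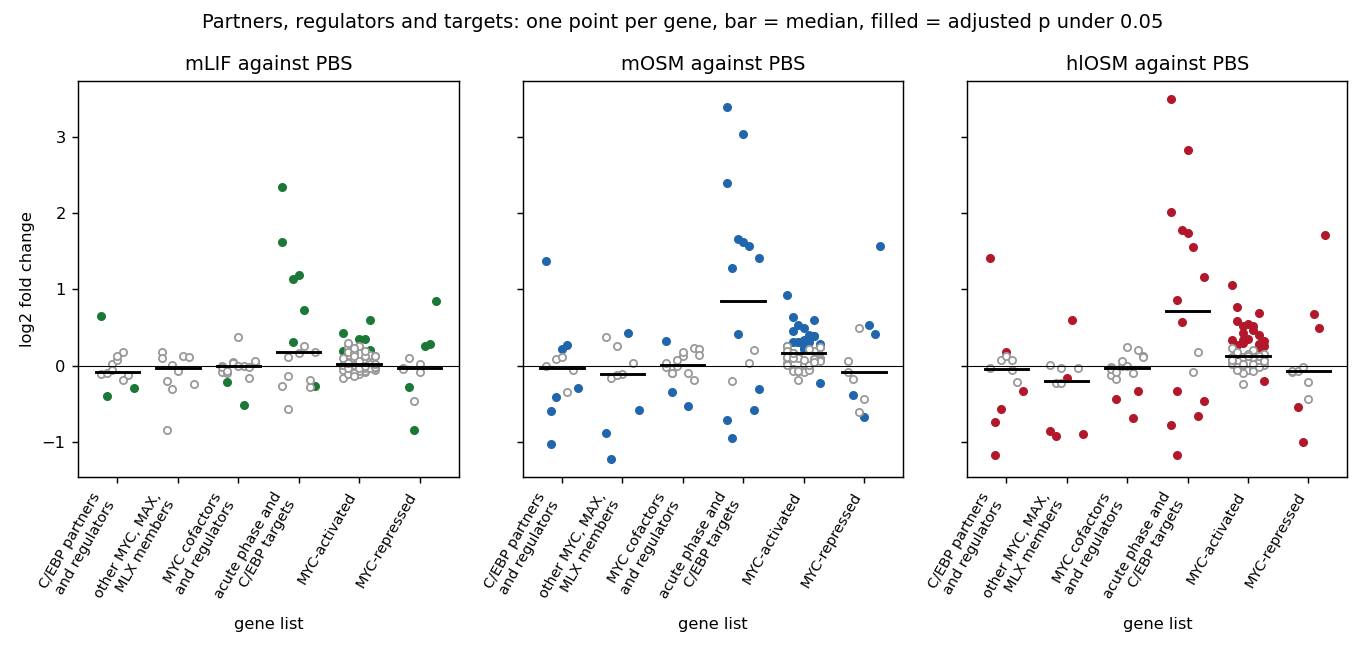
Log2 fold change against PBS (y axis) of the tested genes of 6 lists (x axis) with mLIF, mOSM and hlOSM, 1 point per gene. Filled points passed the threshold and bars are list medians. The median of the acute phase and C/EBP targets lies at 0.85 with mOSM and 0.72 with hlOSM, and that of the MYC-activated genes at 0.16 and 0.13.

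Genes with the profile most like that of a factor were sought among 8669 or 8670 other tested genes with a mean of at least 50 normalized counts, by Pearson's r of log2(normalized count + 1) over the 12 libraries. The points share libraries and 4 conditions, and no test is attached. Cebpd was most like Steap4 (r = 0.99), Klhl6 (0.988) and Tnfrsf1a (0.988). Steap4, a metalloreductase gene, averaged 51.0 normalized counts under PBS, 176 under mLIF, 492 under mOSM and 546 under hlOSM. Cebpb was most like Rps25 (0.993), Cebpg like P2rx5 (0.979) and Mxd4 like Ppfibp2 (0.981), which averaged 348 normalized counts under PBS and 193 under hlOSM. Myc was most like Nip7 (0.954), a ribosome biogenesis gene that is in the list of MYC-activated genes, Max like Thada (0.957), Mxd1 like Traf7 (0.936) and Mxi1 like Nqo2 (0.931). The best match of the low Cebpa was weaker, with C2cd2 at 0.878.

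Markers of cell types were checked in the same libraries. All 8 cardiomyocyte markers were high, with a summed level of 48201 to 50117 normalized counts under PBS, 41849 to 43641 under mLIF, 33853 to 37907 under mOSM and 34690 to 37137 under hlOSM, and the fallen markers were 6 of 8 for mLIF, 7 for mOSM and 7 for hlOSM. The summed levels of all 3 cytokines lay below those of PBS. For these and the marker counts below, 4.44%, 15.8% and 19.8% of all tested genes fell with mLIF, mOSM and hlOSM. Of all tested genes, 5.47%, 15.4% and 18.2% rose. Fibroblast markers summed to between 1886 and 2621 over all libraries, with 3 of 7 higher and 4 lower with hlOSM. Endothelial markers summed to 969 to 1020 under PBS, 970 to 1013 under mLIF, 1232 to 1337 under mOSM and 1217 to 1327 under hlOSM, and 5 of 6 rose with mOSM and with hlOSM. Smooth muscle and pericyte markers summed to 606 to 815 under PBS and 300 to 322 under hlOSM, and 5 of 6 fell. Leukocyte markers, of which 6 of 8 are in the table, summed to between 284 and 390, and mesothelial markers to between 5 and 27. Of the leukocyte markers, 1 rose with mLIF, and 1 rose and 1 fell with mOSM and with hlOSM. The fibroblast, endothelial, leukocyte and mural markers are thus present, and their part in the changes of the 9 factors was not tested.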

How the data were processed

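RNA of primary mouse cardiomyocytes was sequenced from 12 libraries. Per the labels and the methods, reads were trimmed, then aligned to mm10 by STAR 2.7.7a, and featureCounts 1.6.5 gave the number per gene, leaving out reads shared by several genes or places. The values deposited by the authors are scores on a normalized count scale, rounded to whole numbers and not divided by gene length. The normalization is not given in the sources used here. Since they are not read counts, no counting error was attached and no count model was used.

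Conditions and replicate numbers come from the sample titles. Genes with at least 10 normalized counts in at least 3 libraries were tested with limma 3.58.1 in R 4.3.3 (lmFit, then eBayes with trend) after log2 transformation with a pseudocount of 1, with 95% intervals from the same fit, after a test on simulated data. Fold changes on this scale understate the change of low genes. Exon lengths and overlaps come from GENCODE vM21 (GRCm38), in which 22876 of the 22915 genes were found and 22676 had the same start and end. The 9 genes, the gene lists and the motifs were chosen with earlier results of these data known. Named beside the 9 are the 3 largest called changes with hlOSM of each list at a mean of at least 50, any tested gene of a list of at most 16, and the 3 most alike profiles per factor, of which the first is given for most. Alternatives were pseudocounts of 0.1 and 5, no filter, a filter at 50, trimmed-mean rescaling, quantile normalization, a fit of only the conditions compared, a block for replicate numbers, a robust fit, and each library left out in turn.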

Additional observations from a re-analysis of the deposited data

Results flagged for a closer look

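Among the partners and targets, 3 genes passed the limma test of the interaction, in which the step from mOSM to hlOSM is set against that from PBS to mLIF. They were 1 of 12 tested C/EBP partners and regulators and 2 of 16 tested acute phase and C/EBP targets. In the lists of 10, 16, 52 and 11 tested MYC-related genes, 0 were called. Of all genes, 0.167% were called, and the lists were chosen with earlier results of these data known. Serpina3n had an interaction of −2.23 (standard error 0.33, adjusted p = 0.00293). It rose by 2.34 from PBS to mLIF and by 0.10 from mOSM to hlOSM on the log2 scale, with 44, 35 and 16 normalized counts in PBS and 140, 132 and 188 in mLIF. It passed in 19 of 20 alternatives, all but the robust fit (adjusted p = 0.164). Mt2, a metallothionein gene, had −1.07 (standard error 0.19, adjusted p = 0.0166), with steps of 1.18 and 0.12, and passed in 16 of 20 alternatives, with adjusted p up to 0.0884 without mLIF replicate 3. Trib1 had −0.61 (standard error 0.13, adjusted p = 0.0491), with steps of 0.65 and 0.04, and passed in only 5 of 20 alternatives, with adjusted p between 0.0106 and 0.202 and 0.0844 in the blocked fit. The interaction of Cebpd, at −0.89, had the same sign and was not called.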

How the results depend on the processing

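None of the log2 fold changes of the 9 genes that were called changed sign under any alternative. Of their recomputed values, 1244 kept their direction and their side of the threshold, 27 lost and 11 gained a call, as named in the report, and 25 values that were not called changed sign. Against PBS, the numbers of the 9 genes called were within 1.5 times those of the report under each alternative that kept all libraries. With 1 library left out, they ranged from 1 to 2 for mLIF, from 4 to 6 for mOSM and from 5 to 6 for hlOSM. For mOSM against mLIF, 1 gene instead of 2 was called without filter, with the block and in the robust fit, and between 0 (without mLIF replicate 1 or mOSM replicate 3) and 2 with a library left out. For hlOSM against mLIF, the left-out fits gave between 1 (without mLIF replicate 1 or hlOSM replicate 1) and 3, and for the interaction between 0 and 1. Over all genes, mLIF against PBS called 1307 genes, 784 in the fit with a replicate block, and between 502 (without mLIF replicate 3) and 1625 (without mOSM replicate 3) with a library left out. hlOSM against mOSM called 14 genes, but 6 without filter, 7 after trimmed-mean rescaling, 0 when only those conditions were fitted, 2 with the block, and between 1 (without mOSM replicate 3) and 17 (without PBS replicate 3) with a library left out. The interaction called 22 genes, 11 without filter, 14 after trimmed-mean rescaling, quantile normalization or with the block, 12 in the robust fit, and between 5 (without mLIF replicate 3) and 142 (without hlOSM replicate 3) with a library left out. It could not be run on only the conditions compared, since it uses all 4. The causes of these moves were not tested. Same-numbered libraries had correlations of their deviations between −0.518 and 0.0221. Since the values hold almost no difference between replicate numbers, these correlations cannot show whether the numbers mark pairs or batches. Besides the calls of Mxd1 and Mxd4 between cytokines, the block changed no call of the 9 genes. Its losses in the lists stand in the report, besides Fbxw7 with mLIF (0.0994) and Bin1 with mOSM (0.113) among the MYC regulators. Rescaling moved the median of all genes by less than 0.1. The depth behind single values is unknown, which limits low genes such as Cebpa.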
